A study of Mus musculus with 4 samples.

Results

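Genes for ion channels, ion-transporting pumps and neurotransmitter receptors were followed in RNA from mouse spermatozoa after nicotine or saline. They were taken by the start of their gene symbols. The prefixes were those of the sodium-potassium and calcium pumps, the phospholipid flippases and related P-type ATPases, and the potassium, voltage-gated calcium, sodium, chloride, proton, TRP and CatSper channels. They also covered the intracellular calcium release channels, the receptors for ATP, acetylcholine, GABA, glutamate, dopamine and serotonin, and tryptophan hydroxylase. The rule took 96 of the 8699 genes in the deposited tables. The name table holds 335 symbols that match it, and the genes not listed in the tables were not analysed here. By what the genes encode, 9 of the 96 were set apart as not channels, pumps or receptors. They were proteases Htra1 and Htra3, the IP3 receptor associated genes Itprid2, Itpripl1 and Itpripl2, the adaptor Trpc4ap, Grina, and the antisense RNAs Itpr3os and Kcnq1ot1. These 9 were kept and are described separately. The enzyme gene Tph2 is no channel, pump or receptor either, but it was counted with the remaining genes as its own class.

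Mature spermatozoa make almost no new RNA, so the RNA they hold was made before they left the testis or was taken up later. Their movement and fertilising ability depend on ion channels. CatSper, a calcium channel of the sperm tail built from pore-forming and auxiliary subunits, admits the calcium that drives hyperactivated swimming. A sperm-specific sodium pump keeps the sodium gradient, and the potassium channel Slo3, encoded by Kcnu1, sets the membrane voltage in mouse sperm. The P4 ATPases, or flippases, move phospholipids between the leaflets of a membrane. Nicotine itself binds nicotinic acetylcholine receptors, which are cation channels opened by acetylcholine.

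The samples were 4 libraries from adult male C57BL/6J mice of about 11 weeks, an inbred strain: nicotine replicates 1 and 2 and saline replicates 1 and 2. No genetic change is given in the labels. Spermatozoa were pressed through a cut in the cauda epididymis, the tail end of the duct where they are stored, and were suspended in a medium for sperm. The labels give neither dose nor route of nicotine, and name no step that removes other cells. Nothing in them shows whether replicates are different animals. The p-values therefore speak only to the spread among these 4 libraries, and that spread may be technical.

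The libraries were uneven. Reads on listed genes numbered 3798794 and 5216745 in nicotine replicates 1 and 2, against 3999449 and 3856022 in saline replicates 1 and 2. The pair Lars2 and Gm42418 took 90.6% and 77.5% of them in the nicotine libraries, against 74.9% and 75.8% in the saline libraries. Nicotine replicate 1 therefore had 358477 reads outside that pair, while nicotine replicate 2 had 1176304 and the saline libraries had 1002360 and 931578. Levels below are CPM, read counts relative to library size after scaling by edgeR's trimmed mean of M values (TMM). A gene without reads could still have up to 3 counts at this depth. This floor was 2.43 and 0.517 CPM in nicotine replicates 1 and 2, against 0.447 and 0.473 CPM in saline replicates 1 and 2. It covers counting error only.

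The 14 spermatid and sperm marker genes were all listed. They held 5.26% and 5.11% of the reads outside the pair in the nicotine libraries, against 1.86% and 1.61% in the saline libraries. Of these 14 genes 10 were called higher, against 8.27% of all tested genes. The 9 smooth muscle markers, all listed, held 0.115% and 0.713% in the nicotine libraries, against 1.89% and 1.21% in the saline libraries, with none called and Lmod1 at 0 in nicotine replicate 1. The 7 listed of 13 epididymal epithelium markers held 0.470% and 1.83% in the nicotine libraries, against 0.647% and 1.83% in the saline libraries, with none called. The 7 listed of 9 fibroblast and vessel markers held 0.0748% and 0.0704% in the nicotine libraries, against 1.08% and 0.247% in the saline libraries, with Col1a1 and Col3a1 lower and Lum at 0 in nicotine replicate 1 and saline replicate 2. The 8 listed of 9 leukocyte markers held 0.0243% and 0.0297% in the nicotine libraries, against 0.103% and 0.112% in the saline libraries, with Cd14 lower and both Cd14 and Cd68 at 0 in nicotine replicate 1. Among all tested genes 0.931% were called lower. In both nicotine libraries the share of sperm markers was thus above that of either saline library. The shares of the smooth muscle list, the fibroblast and vessel list and the leukocyte list were below that of either saline library. The 7 listed fibroblast and vessel markers were Col1a1, Col1a2, Col3a1, Dcn, Lum, Pdgfra and Vwf. Of the 6 tested, 1 had a log2 fold change above 0, as did 1 of the 8 tested leukocyte markers. The part of all these markers in the results below was not tested. In such bulk RNA, fewer cells of a type and less RNA per cell cannot be told apart.

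All 96 genes together held 2445 and 10484 reads in nicotine replicates 1 and 2, against 10467 and 8977 in saline replicates 1 and 2. As a share of the reads outside the pair this was 0.682% and 0.891% in the nicotine libraries, against 1.04% and 0.964% in the saline libraries. Counting is thin for most of them in nicotine replicate 1, where 61 of the 96 genes had 10 or fewer reads, while nicotine replicate 2 had 13 such genes and the saline libraries had 9 and 13. Nicotine replicate 1 listed 8 genes at 0, among them Atp2a1, Cacnb2, Chrm2, Chrm3, Htra1 and P2rx1. Nicotine replicate 2 listed Atp2a1 at 0, saline replicate 1 none, and saline replicate 2 Grik2 and Kcnip2.

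Nicotine was compared with saline by edgeR's quasi-likelihood test over 8375 genes, of which 88 belong to the set. The other 8, among them Chrna2, Atp2a1, Grik2, Kcnip2, Kcng1, Catsperd and Catsper4, had too few reads to pass the count filter. At a Benjamini-Hochberg adjusted p under 0.05 over all tested genes, 9 of the 88 were higher after nicotine and none was lower. Among all tested genes 8.27% were called higher and 0.931% lower, so the set's share of calls was close to the background. At an unadjusted p under 0.05, 20 of the 88 were higher and 11 lower, against 16.6% higher and 7.12% lower among all tested genes. DESeq2, fitted without that filter to all 96, called 13 higher, against 10.8% of the 8361 genes to which it gave an adjusted p. Some of the 96, among them Chrm2 and Catsper4, got no adjusted p, so these denominators are unlike. In limma-voom 10 of the 88 were higher, against 9.15% of all tested genes. Neither called any of the set lower.

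The 9 were 5 CatSper subunits (Catsper2, Catsperb, Catspere2, Catsperg1 and Catsperg2), the cation channel Trpm4, the NMDA receptor subunit Grin2d, the sodium pump subunit Atp1b3 and the antisense RNA Itpr3os. Their log2 fold changes lay between 2.04 and 2.92. Over the 88 tested genes they ran from -2.88 to 3.20 with a median of -0.45, where the median of all tested genes was -0.14. Fold changes were above 0 for 32 genes and below 0 for 56. In 24 of the 88 both nicotine libraries lay above both saline libraries, in 39 both lay below, and in 25 the groups overlapped. Among all tested genes the same held for 27.4% (above) and 31.0% (below).

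**Figure D1:**
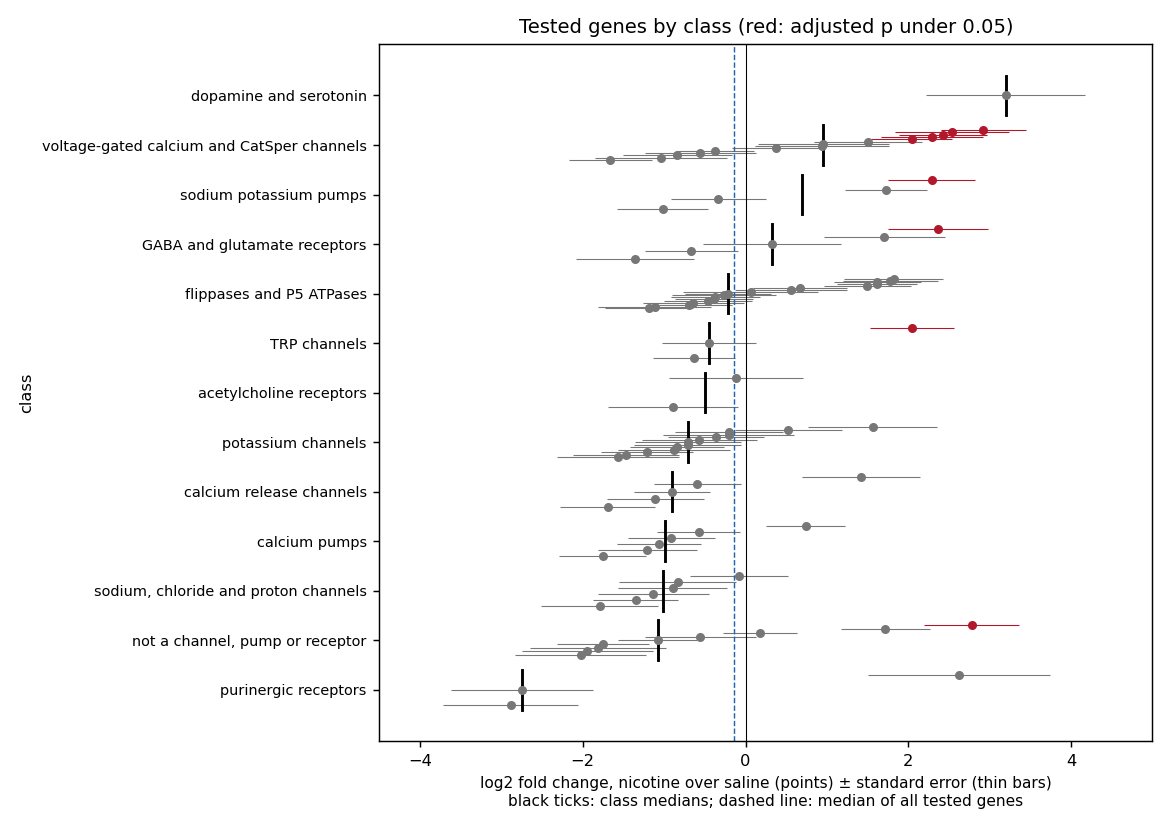
Fitted log2 fold changes, nicotine over saline, with standard errors of the 88 tested genes by class, in red where the adjusted p is under 0.05, with black ticks at the class medians and a dashed line at the median of all tested genes. In the class of voltage-gated calcium and CatSper channels 5 genes, all CatSper subunits, are past the threshold, and the purinergic, calcium pump and chloride channel classes have medians below 0 with none past it.

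CatSper was the subunit family with the most calls. The 8 listed CatSper genes held 235 and 702 reads in nicotine replicates 1 and 2, against 195 and 177 in saline replicates 1 and 2. As a share of the reads outside the pair this was 0.0656% and 0.0597% in the nicotine libraries, against 0.0195% and 0.0190% in the saline libraries, and the groups did not overlap. Of the 11 CatSper genes on a list of subunits, 8 were listed and 6 tested. Of these 5 were higher after nicotine and Catsperz did not pass, against 8.27% higher among all tested genes. The median log2 fold change was 2.36, against -0.14 over all tested genes. For the 14 spermatid and sperm markers it was 2.06, with 10 called higher, so such a rise was not particular to CatSper.

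Catsperg1 (ENSMUSG00000049676), which encodes an auxiliary gamma subunit with a large extracellular part, had 100 and 282 reads in nicotine replicates 1 and 2, against 63 and 48 in saline replicates 1 and 2. In CPM this was 81.2 and 48.6 in the nicotine libraries, against 9.38 and 7.56 in the saline libraries. Both nicotine libraries were far above both saline libraries, and replicate 1 was the higher of the nicotine libraries. The mean was 64.9 ± 23.0 CPM after nicotine and 8.47 ± 1.29 CPM after saline (SD, n = 2 each), a log2 fold change of 2.92 ± 0.52 (SE, adjusted p = 0.0329, edgeR). The second gamma gene, Catsperg2 (ENSMUSG00000049123), had 21.9 and 15.9 CPM in the nicotine libraries, against 4.47 and 2.36 CPM in the saline libraries, a log2 fold change of 2.43 ± 0.54 (adjusted p = 0.0329, edgeR). The gamma genes resemble each other. In the GENCODE M21 transcripts 43.0% of the 50-base stretches of Catsperg1 also occur in Catsperg2, and 44.1% the other way, so their separate values are uncertain.

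Catsper2 (ENSMUSG00000033486), a pore-forming subunit, had 51 and 144 reads in nicotine replicates 1 and 2, against 53 and 50 in saline replicates 1 and 2. Its level was 41.4 and 24.8 CPM in the nicotine libraries, against 7.89 and 7.88 CPM in the saline libraries. The saline libraries were nearly equal and both nicotine libraries lay above them, for a log2 fold change of 2.04 ± 0.50 (adjusted p = 0.0353, edgeR).

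Catsperb (ENSMUSG00000047014), the auxiliary beta subunit, had 17.0 and 8.62 CPM in nicotine replicates 1 and 2, against 1.64 and 3.31 CPM in saline replicates 1 and 2. Those levels rest on 21 and 50 reads in the nicotine libraries, against 11 and 21 in the saline libraries, and the log2 fold change was 2.29 ± 0.63 (adjusted p = 0.0467, edgeR). Catspere2 (ENSMUSG00000091476), an auxiliary epsilon subunit, had 26 and 36 reads in the nicotine libraries, against 17 and 11 in the saline libraries. In CPM that was 21.1 and 6.21 in the nicotine libraries, against 2.53 and 1.73 in the saline libraries, with replicate 1 far above replicate 2 within the nicotine group. Its log2 fold change was 2.54 ± 0.70 (adjusted p = 0.0484, edgeR), and limma-voom gave an adjusted p of 0.0680. Without a filter on low counts Catsperb and Catspere2 also missed the threshold in edgeR (adjusted p = 0.0501 for Catsperb and 0.0513 for Catspere2). In the GENCODE M21 transcripts 9.27% of the 50-base stretches of Catsperb also occur in Gm18795, and 13.8% of those of Catspere2 in Catspere1.

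The remaining CatSper genes had few reads. Catsperd, an auxiliary subunit, had 5 and 39 reads in nicotine replicates 1 and 2, against 10 and 8 in saline replicates 1 and 2, or 4.06 and 6.73 CPM in the nicotine libraries, against 1.49 and 1.26 CPM in the saline libraries. Catsper4, a pore-forming subunit, had 4 and 27 reads in the nicotine libraries, against 5 and 4 in the saline libraries, or 3.25 and 4.66 CPM in the nicotine libraries, against 0.744 and 0.630 CPM in the saline libraries. The groups did not overlap in CPM for either gene, and both fell under the count filter. Without the filter edgeR gave log2 fold changes of 1.99 for Catsperd (adjusted p = 0.0953) and 2.51 for Catsper4 (adjusted p = 0.0801), neither past the threshold. Catsperz, a small auxiliary subunit, had 0.812 and 5.52 CPM in the nicotine libraries, against 0.893 and 3.15 CPM in the saline libraries. Its groups overlapped, and replicate 1 was low in both of them (log2 fold change 0.94 ± 0.82, adjusted p = 0.534, edgeR). In the GENCODE M21 transcripts 33.9% of the 50-base stretches of Catsperz also occur in Kcnk4.

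**Figure D2:**
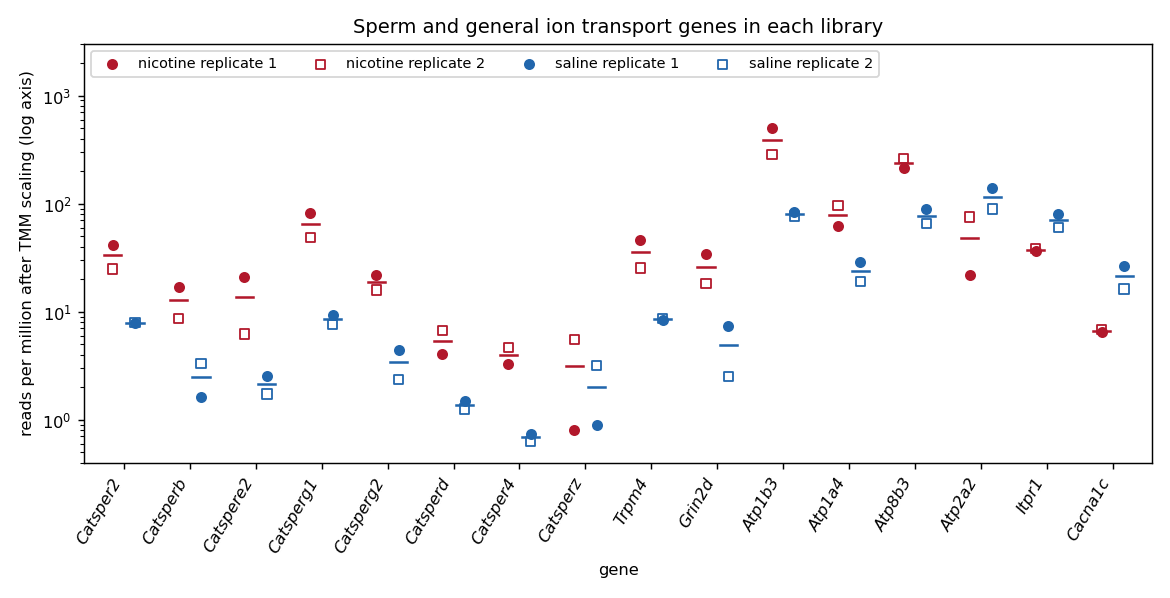
CPM after TMM scaling (log axis) of 16 sperm and general ion transport genes in each library, with horizontal bars at the group means. The 5 called CatSper subunits, Trpm4, Grin2d and Atp1b3 have both nicotine libraries above both saline libraries, while Atp2a2, Itpr1 and Cacna1c, none past the threshold, have both nicotine libraries below both saline libraries.

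The 250 bases before the transcription start are printed for the called coding genes whose RefSeq start lies within 50 bases of the start in GENCODE M21, so that their letters can be read beside their values. They are from RefSeq on GRCm38.p6, 5′ to 3′ on the strand of the gene. Capitals mark matches, on either strand, to the CCAAT box (CCAAT or ATTGG), the core of the cAMP response element (TGACG or CGTCA) and the X-box, the palindrome bound by RFX factors. The regions are chr7:29214034-29214283 on the minus strand for Catsperg1, chr2:121413793-121414042 on the minus strand for Catsper2, chr12:101404423-101404672 on the plus strand for Catsperb and chr9:96364432-96364681 on the minus strand for Atp1b3.
Catsperg1: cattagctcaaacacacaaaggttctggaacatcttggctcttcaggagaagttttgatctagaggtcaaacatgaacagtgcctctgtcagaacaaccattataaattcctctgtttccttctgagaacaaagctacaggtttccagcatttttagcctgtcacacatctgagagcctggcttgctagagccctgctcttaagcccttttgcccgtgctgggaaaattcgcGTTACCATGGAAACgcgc
Catsper2: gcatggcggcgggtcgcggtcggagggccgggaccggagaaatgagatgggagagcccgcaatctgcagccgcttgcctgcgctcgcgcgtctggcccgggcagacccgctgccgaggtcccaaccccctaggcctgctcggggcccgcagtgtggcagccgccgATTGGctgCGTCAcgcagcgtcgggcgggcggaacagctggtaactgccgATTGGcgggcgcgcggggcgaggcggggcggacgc
Catsperb: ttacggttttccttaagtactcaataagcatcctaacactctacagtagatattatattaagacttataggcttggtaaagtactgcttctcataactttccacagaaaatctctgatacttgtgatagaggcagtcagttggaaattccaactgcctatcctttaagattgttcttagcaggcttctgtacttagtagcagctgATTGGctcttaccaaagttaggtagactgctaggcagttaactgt
Atp1b3: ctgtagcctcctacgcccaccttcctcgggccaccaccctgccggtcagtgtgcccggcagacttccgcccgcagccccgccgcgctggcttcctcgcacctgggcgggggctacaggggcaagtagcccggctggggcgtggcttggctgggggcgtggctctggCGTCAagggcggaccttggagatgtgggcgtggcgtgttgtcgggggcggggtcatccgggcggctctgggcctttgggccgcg

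The sequence of Catsperg1 holds the X-box match GTTACCATGGAAAC, which starts at position -18 from the start site. The set had 2 windows with an X-box match among its 100, those of Catsperg1 and Kcnip3, against 36 of all 32851 windows in the RefSeq table (0.110%). The X-box letters were chosen after the sequences had been seen. Catsper2 has a pair of CCAAT boxes and a cAMP response element core, Catsperb has a CCAAT box, and Atp1b3 has a cAMP response element core. CCAAT was found in 23 of the 100 windows of the set, against 33.8% of all windows, and TGACG in 18 of the 100, against 17.8% of all windows. The full element TGACGTCA occurs in the window of Clcn4, against 1.55% of all windows, and each such element also counts as a match to its core. The table held promoters for 73 of the 96 genes. These matches describe the letters only.

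No gene of the voltage-gated calcium channels of the Cacn family, which open on depolarisation of nerve, muscle and gland cells, passed the threshold. All 8 were tested, and their median log2 fold change was -0.47. Cacna1c, the pore of the L-type channel of heart and smooth muscle, had 8 and 40 reads in nicotine replicates 1 and 2, against 178 and 103 in saline replicates 1 and 2. Its level was 6.49 and 6.90 CPM in the nicotine libraries, against 26.5 and 16.2 CPM in the saline libraries. These values did not overlap between the groups, with a log2 fold change of -1.66 ± 0.51 (adjusted p = 0.0706, edgeR). Cacna1d, another L-type pore, was the family member with the highest length-scaled level and had 21.9 and 14.8 CPM in the nicotine libraries, against 22.9 and 23.8 CPM in the saline libraries (log2 fold change -0.38 ± 0.47, adjusted p = 0.68, edgeR). Cacnb1, an intracellular beta subunit, had a log2 fold change of 1.51 ± 0.67 (adjusted p = 0.199, edgeR) on 9 and 29 reads in the nicotine libraries, against 19 and 8 in the saline libraries. Within each library, the summed length-scaled level (CPM per kb) of the CatSper genes divided by that of the Cacn genes was 6.51 and 5.71 in the nicotine libraries, against 1.06 and 1.68 in the saline libraries. These groups did not overlap. Such a ratio does not depend on the scaling between libraries, and the pairs for this and the ratios below were chosen after values had been seen.

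The sodium-potassium pump exchanges sodium for potassium and consists of an alpha subunit, which does the transport, and a beta subunit, which brings it to the membrane. Atp1b3 (ENSMUSG00000032412), a beta subunit, was the gene of the set with the highest length-scaled level, at 164 CPM per kb after nicotine and 33.5 CPM per kb after saline. It had 613 and 1656 reads in nicotine replicates 1 and 2, against 560 and 487 in saline replicates 1 and 2, and 497.5 and 285.6 CPM in the nicotine libraries, against 83.4 and 76.7 CPM in the saline libraries. Both nicotine libraries lay well above both saline libraries. The mean was 392 ± 150 CPM after nicotine and 80.0 ± 4.71 CPM after saline (SD, n = 2 each), for a log2 fold change of 2.29 ± 0.54 (adjusted p = 0.0333, edgeR). In the GENCODE M21 transcripts 9.71% of its 50-base stretches also occur in Gm1848.

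Atp1a4, the alpha subunit restricted to testis and sperm, had 76 and 555 reads in nicotine replicates 1 and 2, against 193 and 121 in saline replicates 1 and 2. Its level was 61.7 and 95.7 CPM in the nicotine libraries, against 28.7 and 19.1 CPM in the saline libraries. The groups did not overlap, but edgeR's adjusted p of 0.0561 missed the threshold at a log2 fold change of 1.73 ± 0.50, while DESeq2 (adjusted p = 0.0207) and limma-voom (adjusted p = 0.0299) called it.

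Atp1b1, the common beta subunit, had 3 and 39 reads in nicotine replicates 1 and 2, against 46 and 39 in saline replicates 1 and 2 (log2 fold change -0.33 ± 0.59, adjusted p = 0.786, edgeR). The length-scaled level of Atp1b3 divided by that of Atp1b1 was 264 and 54.8 in the nicotine libraries, against 15.7 and 16.1 in the saline libraries. With 3 reads of Atp1b1, the ratio in nicotine replicate 1 has an exact 95% counting interval of 89.7 to 1281. Atp1b1 shares 15.8% of its 50-base stretches with Nme7 on the opposite strand.

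**Figure D3:**
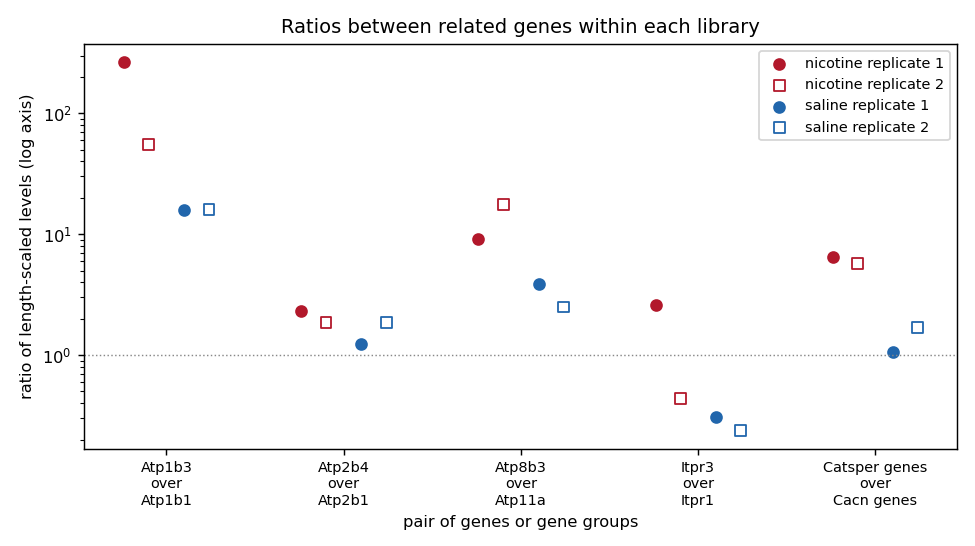
Ratios of length-scaled levels within each library (log axis) for pairs of related genes, nicotine libraries left of saline libraries. The ratios of Atp1b3 to Atp1b1, Atp8b3 to Atp11a, Itpr3 to Itpr1 and CatSper to Cacn are higher in both nicotine libraries than in both saline libraries. That of Atp2b4 to Atp2b1 is not. For Itpr3 to Itpr1 the counting intervals of nicotine replicate 2 and saline replicate 1 overlap.

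The calcium pumps carry calcium out of the cell or into stores. Of 7 listed genes 6 were tested and none was called, with a median log2 fold change of -0.99. Atp2b4, the plasma membrane pump that clears calcium from mouse sperm, had 56 and 537 reads in nicotine replicates 1 and 2, against 613 and 740 in saline replicates 1 and 2. Its level was 45.4 and 92.6 CPM in the nicotine libraries, against 91.3 and 116.6 CPM in the saline libraries, and the groups overlapped (log2 fold change -0.58 ± 0.51, adjusted p = 0.542, edgeR). Its length-scaled ratio to Atp2b1, the plasma membrane pump of most cells, was 2.33 and 1.85 in the nicotine libraries, against 1.24 and 1.86 in the saline libraries. This ratio overlapped between the groups, unlike that of the sodium pump beta subunits.

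Atp2a2, which fills the endoplasmic reticulum, had 21.9 and 75.2 CPM in nicotine replicates 1 and 2, against 140.3 and 89.2 CPM in saline replicates 1 and 2 (log2 fold change -1.21 ± 0.61, adjusted p = 0.260, edgeR). Atp2b3, a plasma membrane pump known from brain, had 14.6 and 31.2 CPM in the nicotine libraries, against 41.8 and 56.7 CPM in the saline libraries (log2 fold change -1.06 ± 0.52, adjusted p = 0.245, edgeR). In both genes the groups did not overlap and nicotine replicate 1 was the lowest library. Atp2c1, the Golgi pump, was the calcium pump with both nicotine libraries above both saline libraries, at 16.2 and 11.4 CPM in the nicotine libraries, against 7.59 and 8.51 CPM in the saline libraries (log2 fold change 0.74 ± 0.49, adjusted p = 0.395, edgeR). Atp2a1, the pump of fast skeletal muscle, had no read in either nicotine library, against 67 and 2 in the saline libraries, and is named after its values were seen. Nearly all of its reads came from saline replicate 1, so no fold is given.

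The calcium release channels let stored calcium into the cytoplasm. None of the 5 passed the threshold, and their median log2 fold change was -0.91. Itpr1, an IP3 receptor, had 45 and 222 reads in nicotine replicates 1 and 2, against 538 and 383 in saline replicates 1 and 2. That was 36.5 and 38.3 CPM in the nicotine libraries, against 80.1 and 60.3 CPM in the saline libraries (log2 fold change -0.91 ± 0.46, adjusted p = 0.267, edgeR). Itpr3, another IP3 receptor, had 46.3 and 8.28 CPM in the nicotine libraries, against 12.1 and 7.09 CPM in the saline libraries. Only nicotine replicate 1 was high, and the groups overlapped (log2 fold change 1.42 ± 0.73, adjusted p = 0.268, edgeR). The length-scaled ratio of Itpr3 to Itpr1 was 2.58 and 0.440 in the nicotine libraries, against 0.306 and 0.239 in the saline libraries. Ryr3, a ryanodine receptor, had 4.87 and 4.66 CPM in the nicotine libraries, against 21.3 and 9.45 CPM in the saline libraries (log2 fold change -1.70 ± 0.58, adjusted p = 0.0974, edgeR).

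Itpr3os (ENSMUSG00000086898), the antisense RNA at Itpr3, was called higher. It had 103 and 184 reads in nicotine replicates 1 and 2, against 61 and 47 in saline replicates 1 and 2, or 83.6 and 31.7 CPM in the nicotine libraries, against 9.08 and 7.40 CPM in the saline libraries. No saline library reached a nicotine library, and nicotine replicate 1 was the highest library, as it was for Itpr3. The log2 fold change was 2.78 ± 0.59 (adjusted p = 0.0329, edgeR). In the GENCODE M21 transcripts 18.7% of its 50-base stretches lie on the opposite strand of Itpr3. The strand setting of the counting is not given in the sources used here. In the shared stretches, reads of the gene and of its antisense partner therefore cannot be told apart.

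Among the P-type ATPases that do not pump small ions, the 13 P4 flippases had a median log2 fold change of 0.56 and the 4 P5 ATPases of the Atp13a family one of -0.91, with none called in either. Atp8b3, a flippase of the acrosome region of mouse sperm, was the most abundant of them per length, at 53.9 CPM per kb after nicotine and 17.6 CPM per kb after saline. It had 262 and 1524 reads in nicotine replicates 1 and 2, against 605 and 413 in saline replicates 1 and 2, and 212.6 and 262.8 CPM in the nicotine libraries, against 90.1 and 65.1 CPM in the saline libraries. The groups did not overlap, and the nicotine libraries were close to each other. Its log2 fold change of 1.62 ± 0.50 did not pass in edgeR (adjusted p = 0.0694), while DESeq2 (adjusted p = 0.0177) and limma-voom (adjusted p = 0.0327) called it.

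Atp9b, a flippase of internal membranes, had 80.3 and 39.5 CPM in nicotine replicates 1 and 2, against 23.5 and 15.0 CPM in saline replicates 1 and 2 (log2 fold change 1.62 ± 0.53, adjusted p = 0.0877, edgeR). Atp8b5, a flippase of the mouse testis, had 16.2 and 7.42 CPM in the nicotine libraries, against 3.72 and 2.52 CPM in the saline libraries (log2 fold change 1.82 ± 0.61, adjusted p = 0.0897, edgeR). For both genes the groups did not overlap. Atp11a, a flippase of many tissues, had 58.4 and 37.6 CPM in the nicotine libraries, against 58.7 and 65.8 CPM in the saline libraries (log2 fold change -0.39 ± 0.47, adjusted p = 0.670, edgeR). The length-scaled ratio of Atp8b3 to Atp11a was 9.20 and 17.7 in the nicotine libraries, against 3.88 and 2.50 in the saline libraries. Atp13a4, the P5 member with the most reads, had 8.12 and 42.9 CPM in the nicotine libraries, against 28.7 and 35.8 CPM in the saline libraries, so its nicotine libraries fell on either side of the saline libraries.

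Genes known for roles in sperm were also read as a list of 20, which includes Trpv6 for its role in the epididymis. Of these 14 were listed and 12 tested. The list was chosen with earlier results of these data known. The 5 CatSper subunits were called higher and none was lower, against 8.27% higher and 0.931% lower among all tested genes. The median log2 fold change of the 12 was 1.77, against -0.14 over all tested genes. For 9 of the 12 both nicotine libraries lay above both saline libraries, as did 27.4% of all tested genes. Kcnu1, the pore of Slo3, had 13 and 14 reads in nicotine replicates 1 and 2, against 12 and 12 in saline replicates 1 and 2. In CPM this was 10.6 and 2.41 in the nicotine libraries, against 1.79 and 1.89 in the saline libraries, so the difference lay mostly in nicotine replicate 1 (log2 fold change 1.56 ± 0.79, adjusted p = 0.264, edgeR). Trpv6, a calcium channel of epithelia that keeps luminal calcium low in the mouse epididymis, had 8.93 and 23.8 CPM in the nicotine libraries, against 15.3 and 31.7 CPM in the saline libraries (log2 fold change -0.45 ± 0.58, adjusted p = 0.691, edgeR).

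Potassium channels set the resting voltage and end action potentials. Of 15 listed genes 13 were tested, none was called, and the median log2 fold change was -0.71. In 7 of the 13 both nicotine libraries lay below both saline libraries, in 1 (Kcnu1) both lay above, and in 5 the groups overlapped, where 31.0% of all tested genes lay below and 27.4% above. Kcnk1, a leak channel and the potassium channel gene with the highest length-scaled level, had 4 and 129 reads in nicotine replicates 1 and 2, against 90 and 121 in saline replicates 1 and 2. Its level was 3.25 and 22.2 CPM in the nicotine libraries, against 13.4 and 19.1 CPM in the saline libraries. The nicotine libraries thus lay below and above both saline libraries (log2 fold change -0.21 ± 0.66, adjusted p = 0.887, edgeR). Kcnip3, a calcium-binding partner of voltage-gated channels, had 0.812 and 11.7 CPM in the nicotine libraries, against 11.0 and 11.2 CPM in the saline libraries. Here nicotine replicate 1, with 1 read, was the library apart (log2 fold change -0.57 ± 0.70, adjusted p = 0.675, edgeR). Kcnd3, a channel of the transient outward current, had 1 and 37 reads in the nicotine libraries, against 94 and 68 in the saline libraries (log2 fold change -1.47 ± 0.65, adjusted p = 0.199, edgeR). It was the potassium channel gene with an unadjusted p under 0.05. Kcng1 and Kcnip2 were not tested.

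The chloride channel family and the sodium channel relative Scn7a gave 6 tested genes, none called, with a median log2 fold change of -1.01. Clcn7, a chloride-proton exchanger of lysosomes, had 6.49 and 12.9 CPM in nicotine replicates 1 and 2, against 21.4 and 31.0 CPM in saline replicates 1 and 2 (log2 fold change -1.35 ± 0.52, adjusted p = 0.140, edgeR). Clcn5, an exchanger of endosomes, had 6.49 and 40.7 CPM in the nicotine libraries, against 47.2 and 45.7 CPM in the saline libraries, with nicotine replicate 1 far below the rest (log2 fold change -0.90 ± 0.67, adjusted p = 0.459, edgeR). For both genes the nicotine libraries lay below the saline libraries.

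Of the 3 TRP channels, Trpm4 was called. Trpm4 (ENSMUSG00000038260), a channel for sodium and potassium that opens when cytoplasmic calcium is high, had 57 and 147 reads in nicotine replicates 1 and 2, against 56 and 55 in saline replicates 1 and 2. Its level was 46.3 and 25.4 CPM in the nicotine libraries, against 8.34 and 8.66 CPM in the saline libraries. Both nicotine libraries lay above the closely agreeing saline libraries, for a log2 fold change of 2.05 ± 0.51 (adjusted p = 0.0368, edgeR). Trpm7, a channel fused to a kinase, had 5.68 and 11.0 CPM in the nicotine libraries, against 14 and 13.5 CPM in the saline libraries (log2 fold change -0.63 ± 0.50, adjusted p = 0.491, edgeR).

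Chrna2, the alpha2 subunit and the only nicotinic receptor gene among the listed genes, was near the floor of detection. It had 4 and 12 reads in nicotine replicates 1 and 2, against 25 and 5 in saline replicates 1 and 2. That was 3.25 and 2.07 CPM in the nicotine libraries, against 3.72 and 0.788 CPM in the saline libraries. The saline libraries spanned both nicotine libraries, and the mean was 2.66 ± 0.832 CPM after nicotine and 2.25 ± 2.08 CPM after saline (SD, n = 2 each). It did not pass the count filter, and without a filter edgeR gave a log2 fold change of 0.08 (adjusted p = 0.966) and DESeq2 one of 0.21 (adjusted p = 0.954). Without a nicotine library the log2 fold change was -0.10 (replicate 1 left out) or 0.60 (replicate 2 left out), and without saline replicate 2 it was -0.59, so its sign depended on the libraries. The muscarinic receptor genes Chrm2 and Chrm3, whose products act through G proteins, were both at 0 in nicotine replicate 1. Chrm2 had 14 reads in nicotine replicate 2, against 21 and 21 in the saline libraries, and Chrm3 had 25 in nicotine replicate 2, against 19 and 22 in the saline libraries. Neither was called (adjusted p = 0.544 for Chrm2 and 0.949 for Chrm3, edgeR).

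ATP-gated channels of the P2rx family gave 3 tested genes and no call. P2rx1, the receptor through which ATP contracts the smooth muscle of the vas deferens, had 0 and 35 reads in nicotine replicates 1 and 2, against 280 and 76 in saline replicates 1 and 2. In CPM that was 0 and 6.04 in the nicotine libraries, against 41.7 and 12.0 in the saline libraries, so the groups did not overlap but the saline libraries also stood far apart (log2 fold change -2.75 ± 0.87, adjusted p = 0.0761, edgeR). P2rx4, a receptor of immune cells and epithelia among others, had 1 and 3 reads in the nicotine libraries, against 22 and 36 in the saline libraries (log2 fold change -2.88 ± 0.83, adjusted p = 0.0546, edgeR). It was the lowest fold change of the 88. P2rx3, known from sensory neurons, had 20.3 and 1.90 CPM in the nicotine libraries, against 2.68 and 0.315 CPM in the saline libraries, and the groups overlapped (log2 fold change 2.62 ± 1.12, adjusted p = 0.184, edgeR). With single libraries left out that fold change lay between 0.35 (without nicotine replicate 1) and 4.84 (without saline replicate 1).

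Among the receptors for glutamate and GABA, Grin2d was called. Grin2d (ENSMUSG00000002771), the GluN2D subunit of the NMDA receptor, a glutamate-gated calcium channel of neurons, had 42 and 106 reads in nicotine replicates 1 and 2, against 49 and 16 in saline replicates 1 and 2. Its level was 34.1 and 18.3 CPM in the nicotine libraries, against 7.30 and 2.52 CPM in the saline libraries. The groups did not overlap although the libraries within each group differed, and the log2 fold change was 2.37 ± 0.62 (adjusted p = 0.0401, edgeR). In the GENCODE M21 transcripts 7.57% of its 50-base stretches lie on the opposite strand of Gm45441. Gria2, a subunit of the AMPA receptor, had 6 and 19 reads in the nicotine libraries, against 4 and 11 in the saline libraries (log2 fold change 1.71 ± 0.75, adjusted p = 0.195, edgeR). Gabrp, a subunit of the GABA-A receptor found outside the brain, had 6.49 and 5.35 CPM in the nicotine libraries, against 0.893 and 8.35 CPM in the saline libraries, so the saline libraries lay on either side of the nicotine libraries (log2 fold change 0.33 ± 0.85, adjusted p = 0.857, edgeR).

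Tph2, the enzyme of serotonin synthesis in neurons, had the highest fold change of the 88 and was not called. It had 31 and 15 reads in nicotine replicates 1 and 2, against 7 and 10 in saline replicates 1 and 2, or 25.2 and 2.59 CPM in the nicotine libraries, against 1.04 and 1.58 CPM in the saline libraries. Nearly all of the difference lay in nicotine replicate 1. The log2 fold change was 3.20 ± 0.98 (adjusted p = 0.0680, edgeR), DESeq2 gave an adjusted p of 0.00857, and limma-voom one of 0.309 at a log2 fold change of 1.82.

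The 9 genes set apart as no channel, pump or receptor had a median log2 fold change of -1.08, and Itpr3os was the one called. Grina, a membrane protein linked to the control of calcium in the endoplasmic reticulum, had 57.6 and 23.3 CPM in nicotine replicates 1 and 2, against 12.8 and 11.2 CPM in saline replicates 1 and 2 (log2 fold change 1.72 ± 0.55, adjusted p = 0.0794, edgeR). Kcnq1ot1, the imprinted RNA antisense to Kcnq1, had 3 and 47 reads in the nicotine libraries, against 123 and 141 in the saline libraries (log2 fold change -1.75 ± 0.57, adjusted p = 0.0808, edgeR). Leaving these 9 genes out, 8 of the remaining 79 tested genes were higher and none lower. This was close to the 8.27% and 0.931% of all tested genes. The 79 are channel, pump and receptor genes apart from the enzyme gene Tph2.

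Other genes of ion handling, which the symbol rule does not take, were read from a list of 69 (store-operated channels, calmodulin and its kinases, exchangers, chloride channels and sperm calcium signalling). Of these 38 were listed and 37 tested, 4 were higher after nicotine and none was lower, close to the 8.27% higher and 0.931% lower among all tested genes, and the median log2 fold change was -0.44. The 4 were Adcy10, the bicarbonate-stimulated adenylyl cyclase of sperm, Cabyr, a calcium-binding protein of the sperm tail, Cftr, a chloride and bicarbonate channel, and Plcz1, the sperm phospholipase that starts calcium waves in the egg. Adcy10 had 62.5 and 28.5 CPM in nicotine replicates 1 and 2, against 8.04 and 7.40 CPM in saline replicates 1 and 2 (log2 fold change 2.53 ± 0.55, adjusted p = 0.0329, edgeR). Plcz1 had 34.9 and 24.8 CPM in the nicotine libraries, against 6.25 and 4.88 CPM in the saline libraries (log2 fold change 2.40 ± 0.50, adjusted p = 0.0329, edgeR). The groups did not overlap for either gene. Cabyr had a log2 fold change of 2.80 ± 0.53 and Cftr one of 3.40 ± 0.76 (adjusted p = 0.0329 for each, edgeR), although Cftr had only 26 and 41 reads in the nicotine libraries, against 12 and 4 in the saline libraries. C2cd6, which is needed to place CatSper in the mouse sperm tail, was not tested and had 5 and 43 reads in the nicotine libraries, against 4 and 4 in the saline libraries.

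The nicotine libraries differed from each other more than the saline libraries did. On the log2(CPM + 1) scale, the median absolute difference between the libraries of a group over the 88 genes was 0.976 for nicotine and 0.408 for saline. Set against the saline mean, both nicotine libraries were above it for 28 genes and both below it for 46. Nicotine replicate 1 was above and replicate 2 below for 2 genes, and the reverse held for 12. In all 9 called genes nicotine replicate 1 had a higher CPM than nicotine replicate 2. That order depends on the scaling, whose TMM factors were 0.325 and 1.11 in nicotine replicates 1 and 2. As a share of listed reads it reverses for Atp1b3, with 613 of 3798794 reads in replicate 1 and 1656 of 5216745 in replicate 2. How many of all tested genes had that order in CPM was not counted.

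**Figure D4:**
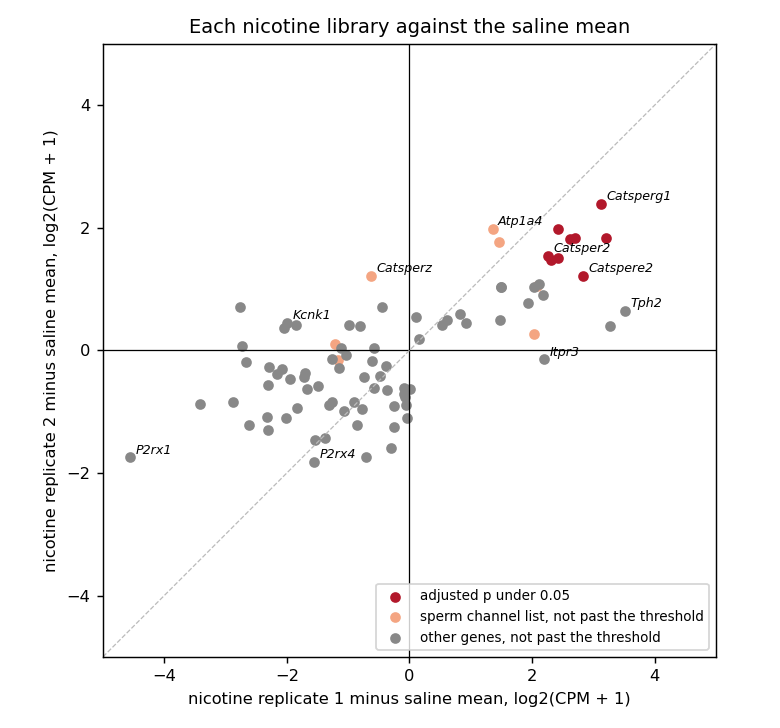
Difference of each nicotine library from the saline mean, on the log2(CPM + 1) scale, for the 88 tested genes, with nicotine replicate 1 on the horizontal and nicotine replicate 2 on the vertical axis and the dashed line at equality. The 9 called genes lie in the upper right corner and below the line, where nicotine replicate 1 exceeds nicotine replicate 2, and 12 genes lie above 0 in replicate 2 and below 0 in replicate 1.

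The calls depended on the scaling. With the total of listed reads as library size, the 9 log2 fold changes ran from 0.61 to 1.51, none was called (adjusted p = 0.471 to 0.719, edgeR), and the median of all genes was -1.28. With the reads outside Lars2 and Gm42418 they ran from 1.30 to 2.18, none was called (adjusted p = 0.0810 to 0.143, edgeR), and the median of all genes was -0.77. Taken relative to the median of all genes, the same 9 genes were 2.18 to 3.06 higher with TMM. They were 2.07 to 2.95 higher with the reads outside the pair and 1.89 to 2.79 higher with the total, all on the log2 scale. A change of library size shifts all genes nearly alike, so subtracting the median removes it by construction. The closeness of these ranges is therefore no test of the scaling, and the 9 were chosen by the TMM fit.

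The calls also depended on the libraries. Without saline replicate 1, none of 92 tested genes of the set was called in either direction, where 0.152% of all genes were higher and 0.303% lower, and the log2 fold changes of the 9 ran from 1.87 to 3.31 (adjusted p = 0.162 to 0.461, edgeR). Without saline replicate 2, none of 96 was higher and Atp2a1 was lower, where 0.0% of all genes were higher and 0.104% lower, and the 9 ran from 1.79 to 2.87 (adjusted p = 0.349 to 0.496, edgeR). Without nicotine replicate 1, 11 of 95 were higher and 8 lower, where 10.8% of all genes were higher and 3.29% lower. Catsperb (adjusted p = 0.0523, edgeR) and Catspere2 (adjusted p = 0.116, edgeR) then lost the call, and Atp1a4, Atp8b3, Catsperd and Catsper4 gained it. Without nicotine replicate 2, 21 of 93 were higher and 19 lower, where 17.8% of all genes were higher and 9.67% lower, and all 9 kept the call. In each of these fits the lone library of a group was assumed to vary like the libraries of the other group.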

How the data were processed

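RNA of mouse spermatozoa was sequenced in 4 libraries, 2 after nicotine and 2 after saline. For each library the authors deposited a table of 8699 genes with gene lengths, read numbers and RPKM values (reads scaled by gene length and library total). The submitters' processing notes name CASAVA, TopHat and the build mm8 without versions or roles. The counter, annotation, strand setting and treatment of shared reads are not given in the sources used here. Reads as deposited were not normalised by the authors and were handled as estimated counts, because the last line of their column, which names no gene, holds a fraction. That line is a scaling factor and no read number, and it was left out. All gene lines were whole numbers. The authors' deposited RPKM equalled the values recomputed from reads and lengths apart from rounding, and was used only for that check.

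Symbols were found for 8688 genes. Counts were tested with edgeR 4.0.16 in R 4.3.3 by glmQLFit and glmQLFTest, with filterByExpr at a minimum count of 10, TMM scaling and the group alone in the model. Benjamini-Hochberg adjustment ran over all 8375 tested genes, and an adjusted p under 0.05 was called. With 2 libraries a group, an exact two-sided permutation test of a single gene cannot go below p = 0.333. DESeq2 1.42.0, limma-voom (limma 3.58.1), other scalings, no filter, each library left out and a replicate block were alternatives.

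The members and all lists were chosen with earlier results of these data known. Genes given in full are Chrna2, all called genes, the 2 with the highest mean length-scaled level in each class, and the sperm channel list; others named were chosen after their values were seen. Results of a few members are not reported here. Shared 50-base stretches came from GENCODE M21 transcripts, and promoters from RefSeq. No other coordinates are given, since mm8 is not the build of those annotations.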

Additional observations from a re-analysis of the deposited data

How the results depend on the processing

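With median-of-ratios scaling in edgeR the same 9 genes of the set were called higher. DESeq2 called 13 of the 96 genes higher, against 10.8% of the 8361 genes to which it gave an adjusted p. The 96 include some genes to which it gave none. In limma-voom 10 of 88 were higher, against 9.15% of all tested genes. EdgeR without a count filter called 7 of 96 higher, against 7.59% of all genes. None of these gave a lower call in the set. Over all genes DESeq2 called 84 lower, limma-voom 46 and edgeR without a filter 74. The median log2 fold change of the set was -1.11 with the reads outside Lars2 and Gm42418 as library size and -1.54 with the total of listed reads, and the set had 0 higher calls under either. At an unadjusted p under 0.05 edgeR then had 10 higher and 29 lower with the reads outside the pair, and 0 higher and 16 lower with the total. Over all 8375 tested genes the reads outside the pair gave 0 higher and 0 lower calls, and 2523 genes at an unadjusted p under 0.05. The total gave 0 higher and 9 lower calls, and 889 genes at an unadjusted p under 0.05. The 2523 and 889 genes were not split by direction. The median log2 fold change of all tested genes was also below 0, at -0.77 with the reads outside the pair and -1.28 with the total. Leaving out each library in turn gave 0 to 21 higher and 0 to 19 lower calls in the set, 0 to 1515 higher and 9 to 824 lower over all genes, and a median of the set from -0.77 to -0.18.

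A replicate block gave 18 higher and 6 lower calls in the set and 1078 higher and 279 lower over all genes. The labels do not say that the numbers pair the libraries. Over 8375 genes the difference of libraries 1 and 2 correlated between the groups at r = 0.186, which is across genes of only 2 pairs.

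Some genes that were not called changed sign. With the total of listed reads the log2 fold changes were -0.0302 for Catsperz, -0.90 for Gabrp, -0.40 for Itpr3 and -0.0060 for Kcnu1, and with the reads outside the pair -0.34 for Gabrp. Leaving out each library in turn gave ranges of -1.22 to 1.99 for Catsperz, -0.54 to 2.65 for Gabrp, -0.19 to 2.35 for Itpr3, -3.66 to 0.10 for Kcnip3, -2.25 to 0.47 for Kcnk1 and -1.33 to 0.13 for Trpv6. For Chrm3, at 0 in nicotine replicate 1, it gave -6.91 to 0.47, where the lower end rests on that 0 and depends on the prior count. The cause was not tested. Nicotine replicate 1, with 358477 reads outside the pair, limits what can be seen for genes with few reads.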
